A study of Mus musculus with 11 samples.

Results

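The genes described here encode neurotrophic factors and their receptors: the ligands Gdnf, Nrtn and Bdnf, the receptor tyrosine kinases Ret, Ntrk2 and Ntrk3, the co-receptors Gfra1 and Gfra2, and the neurotrophin receptor Ngfr. These 9 genes, of 22380 protein-coding genes in the annotation, were chosen by name for their role in this signalling, and all 9 were found. Open chromatin regions were assigned to a gene when they overlapped its body extended by 20 kb on each side on the mm9 genome. The rule gave 125 regions of the 131942 regions deposited for the series, and 17 of them overlapped a promoter, taken as 1 kb upstream to 100 bp downstream of a transcription start site (TSS). Of these 17, 15 lay at promoters of the 9 genes and 2 at those of neighbouring genes, and the other 108 regions are called distal.

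The study compared midbrain dopaminergic (DA) neurons with hindbrain serotonergic (5-HT) neurons of mouse embryos, and chromatin was profiled by ATAC-seq, in which a transposase inserts adapters into accessible DNA. The 3 DA libraries came from ventral mesencephalons of E14.5 embryos of the TH-GFP line, kept on a C57BL/6J background, and hold GFP-positive cells sorted by FACS. The 2 5-HT libraries came from the anterior rhombomeres of E14.5 Mash1-CRE x ROSA YFP embryos and hold sorted YFP-positive cells. In both lines, transgenic males were crossed with Swiss wild-type females, and no group received a treatment. Each library was a separate sort of cells pooled from several embryos, and fewer cells were sorted for the 5-HT libraries. GFP depends on the Th promoter and marks cells in which that transgene is active. YFP marks every descendant of a cell that expressed Cre under Mash1, a gene that progenitors of other neurons express as well. Genotype, brain region and sorting strategy differ together between the groups, so their effects cannot be told apart from that of the cell type.

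GDNF and neurturin, the product of Nrtn, bind the membrane-anchored co-receptors GFRα1 and GFRα2, which present them to the receptor tyrosine kinase RET. BDNF binds the kinase TrkB, encoded by Ntrk2, while TrkC, encoded by Ntrk3, is the receptor of neurotrophin 3. The p75 receptor, encoded by Ngfr, binds all neurotrophins. GDNF and BDNF are known as survival factors for midbrain DA neurons in culture, and Ret and Gfra1 are known to be expressed by these neurons.

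The deposited score of a peak has no named scale, and 0 stands for the absence of a peak. Over all 16856 regions with a peak in all 5 libraries, the median score was 7.55, 9.28 and 8.08 in DA replicates 1, 2 and 3. It was 5.65 and 3.98 in 5-HT replicates 1 and 2. Higher DA scores are thus found over the whole series, and a higher one at a single region is not read as particular to it. DA replicates 1, 2 and 3 had 52861, 93055 and 94351 peaks, and 5-HT replicates 1 and 2 had 38772 and 22879. A list of peaks does not tell the read depth, and only these totals show how much each library yielded. Every 5-HT library therefore had fewer peaks than every DA library before any gene was considered. For this reason the main counts are also given for the 22879 highest-scoring peaks of each library, called the matched number, and a count without that remark covers all peaks. Regions are called DA-only when the 3 DA libraries have a peak there and neither 5-HT library does, and 5-HT-only in the opposite case.

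The labelled cell types were compared with the promoters of marker genes. Of 10 DA markers, 10 had a promoter peak in each DA library, against 7 and 6 in 5-HT replicates 1 and 2, and at the matched number 8, 7 and 7 had one against 5 and 6. The summed promoter score of these 10 genes was 74.0, 77.9 and 67.0 in the DA libraries and 31.0 and 19.7 in the 5-HT libraries. Pitx3 had the highest sum over the 5 libraries, and En1 scored highest in 5-HT replicate 2. At Th, which encodes the rate-limiting enzyme of dopamine synthesis, the promoter region scored 9.91, 10.6 and 8.45 in the DA libraries and had no peak in either 5-HT library, also at the matched number. The 5-HT markers did not separate the groups in this way with all peaks. Of 7 such genes, 4, 5 and 4 had a promoter peak in the respective DA libraries, and 4 and 3 in the 5-HT ones. Their summed promoter score was 26.3, 28.0 and 24.8 in the DA libraries and 20.3 and 14.1 in the 5-HT libraries. Tph2 had the highest sum over the 5 libraries, and in 5-HT replicate 2 Gata3 scored above it (7.51 against 3.59). The promoter of Slc6a4, the serotonin transporter, was DA-only. Fev, a transcription factor of 5-HT neurons, had a promoter peak in 5-HT replicate 1 alone, with a score of 3.88, and Slc22a3 had none in any library. Gata2 scored 4.20 in 5-HT replicate 1 and 3.11 in DA replicate 2, and was at 0 in the other 3 libraries. Gata3 scored 6.98, 4.52 and 4.65 in the DA libraries and 5.13 and 7.51 in the 5-HT libraries. Of the 7 genes, 2, 1 and 1 had a promoter peak in the DA libraries at the matched number, and 3 in each 5-HT library. The order of the groups at these genes thus depended on the number of peaks used, and the libraries are called 5-HT as labelled. The paper reports Tph2 protein and mRNA enriched in YFP-positive cells of this sort, which also expressed genes of DA and GABAergic neurons. For the GFP-positive cells it reports that most were Th-positive. Because GABAergic markers were highly expressed in them, it proposes a slight contamination by GABAergic neurons.

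Markers of other cells were also read at their promoters. Ret and the neurotrophin receptors are known to be active in motor, sensory and noradrenergic neurons as well. Among 3 noradrenergic markers, 0, 1 and 1 had a promoter peak in the DA libraries and none had one in the 5-HT libraries, at Slc6a2 in DA replicate 2 (3.70) and at Phox2a in DA replicate 3 (3.21). Dbh was at 0 in every library. Of the motor neuron markers, 3 were found in the annotation, and 2 had a promoter peak in each DA library and 1 in each 5-HT library. Their summed score was 8.28, 11.3 and 11.0 in the DA libraries and 5.48 and 2.96 in the 5-HT libraries. Isl1 made up the 5-HT sums, Mnx1 was DA-only and above Isl1 in DA replicate 3, and Chat was at 0 in all 5. The neural crest marker Sox10 was at 0 in all 5. All 3 GABA markers had a promoter peak in each DA library and 2 had one in each 5-HT library, with summed scores of 14.9, 13.9 and 12.9 against 9.57 and 6.60. Gad2 had the highest sum over the 5 libraries, while Slc32a1 scored above it in DA replicates 1 and 2 and was at 0 in both 5-HT libraries. Of the 2 glutamate markers, Slc17a6 scored 9.97, 12.9 and 12.8 in the DA libraries, 3.65 in 5-HT replicate 1 and 0 in 5-HT replicate 2, and Slc17a7 was at 0. Of 4 radial glia and astrocyte markers, 3, 4 and 4 had a promoter peak in the DA libraries and 3 and 1 in the 5-HT libraries, with summed scores of 18.7, 21.3, 21.9, 15.6 and 3.07. Gfap had the highest sum over the 5 libraries but was at 0 in 5-HT replicate 2, where Fabp7 alone had a peak. Of 4 endothelial and pericyte markers, 1, 3 and 2 had a promoter peak in the DA libraries and 1 and 0 in the 5-HT libraries, with summed scores of 4.86, 12.5, 8.34, 4.62 and 0, with Cldn5 highest in each library that had any. Both microglia markers were at 0. The promoters of Gad1, Gad2 and Isl1 were 5-HT-only at the matched number, where 0 of the 3 GABA markers had a promoter peak in each DA library and 2 in each 5-HT library. None of the 3 noradrenergic promoters was kept in any library, and Slc17a6 was DA-only. Of the glial markers, 2, 1 and 2 were kept in the DA libraries and 2 and 1 in the 5-HT libraries, and of the endothelial and pericyte markers only Cldn5, in 5-HT replicate 1. The part of such cells in the results below was not tested.

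With all peaks, most of the 9 genes had an open promoter in both cell types, as had most protein-coding genes with a promoter region. Every DA-only region lay outside promoters, and few promoter regions of the whole series were DA-only either. Among 15 promoter regions, 4 were 5-HT-only at the matched number (26.7%, against 3.55% of all promoter regions). That number takes in the whole list of 5-HT replicate 2 and only the highest-scoring part of the other lists. The count is therefore not read as a difference between the cell types. A region at a promoter of the gene had a peak in all 5 libraries for 8 of the 9 genes, while the main promoter region had one in 74.3% of the 14559 protein-coding genes with any promoter region. Nrtn was the exception, with no promoter peak in DA replicate 1. Of the 108 distal regions, 25 (23.1%) were DA-only, against 14.6% of all distal regions, and 13 (12.0%) had a peak in all 5 libraries, against 5.55%. None was 5-HT-only, against 0.434% of all distal regions. Among the 15 promoter regions of the 9 genes, 10 had a peak in all 5 libraries, against 58.8% of all promoter regions. None of the 15 was DA-only, against 5.51%, and none was 5-HT-only, against 0.101%. At the matched number of peaks, 6 of the 108 distal regions were DA-only (5.56%, against 2.33% of all distal regions), 2 were 5-HT-only (1.85%, against 1.51%) and 9 had a peak in all 5 libraries (8.33%, against 2.72%). These counts describe the regions of 9 chosen genes and were not tested against other lists. Without DA replicate 1, the library with the fewest peaks in its group, 40 regions were DA-only in place of 25.

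The share of the 125 regions with a peak was 49.6%, 84.0% and 70.4% in the DA libraries, by replicate number, and 32.8% and 24.8% in the 5-HT ones. Over all 131942 regions, the shares were 40.1%, 70.5%, 71.5%, 29.4% and 17.3% in the same order. At the matched number, the share was 23.2%, 20.0% and 22.4% in the DA libraries and 22.4% and 24.8% in the 5-HT libraries, against 17.3% of all regions in each. The groups overlapped, and the mean was 21.9% ± 1.67 (SD, n = 3) for DA and 23.6% for 5-HT, a difference of -1.73 percentage points. With all peaks the difference was 39.2 percentage points in the other direction. Promoter and distal regions differed in this respect. Of the 108 distal regions, 22.2%, 18.5% and 19.4% were kept in the DA libraries at the matched number and 15.7% in each 5-HT library, so every DA library was higher, as with all peaks (45.4%, 82.4% and 67.6% against 23.1% and 15.7%). Over all distal regions of the series, 11.4%, 11.3% and 11.7% were kept against 10.5% and 10.4%. With all peaks, 33.7%, 66.9% and 68.8% of them had a peak against 22.0% and 10.4%, so the order was the same there. Of the 15 promoter regions, 4, 3 and 6 were kept in the DA libraries and 9 and 12 in the 5-HT libraries, while 11, 14, 13, 14 and 12 had a peak before matching. Over all promoter regions, 55.5%, 55.7% and 53.6% were kept in the DA libraries and 61.0% and 61.6% in the 5-HT libraries.

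DA-only regions were spread unevenly over the genes. Gfra1 had 9, Ntrk3 had 8, Ret had 3, Ntrk2 had 2, and Gfra2, Gdnf and Bdnf had 1 each. Nrtn and Ngfr had none. At least 1 DA-only region was thus found for 7 of the 9 genes, against 36.7% of protein-coding genes with windows built in the same way, and for 4 of the 9 at the matched number, against 11.0%. Long genes collect more regions, and the windows ranged from 46.2 kb for Nrtn to 426 kb for Ntrk3. Regions are placed by their centre, and introns are numbered in the longest protein-coding transcript of each gene. By this rule, 22 of the 25 DA-only regions lay in introns, 2 upstream of the gene and 1 downstream, and 6 were in a first intron. An exon was overlapped by 2 of the 25, at Gdnf and Bdnf. Their median width was 569 bp, against 523 bp for all 17616 DA-only regions of the series, while the 25 regions with a peak in all 5 libraries had a median width of 1164 bp, against 1091 bp for all 16856 regions of that kind.

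**Figure D1:**
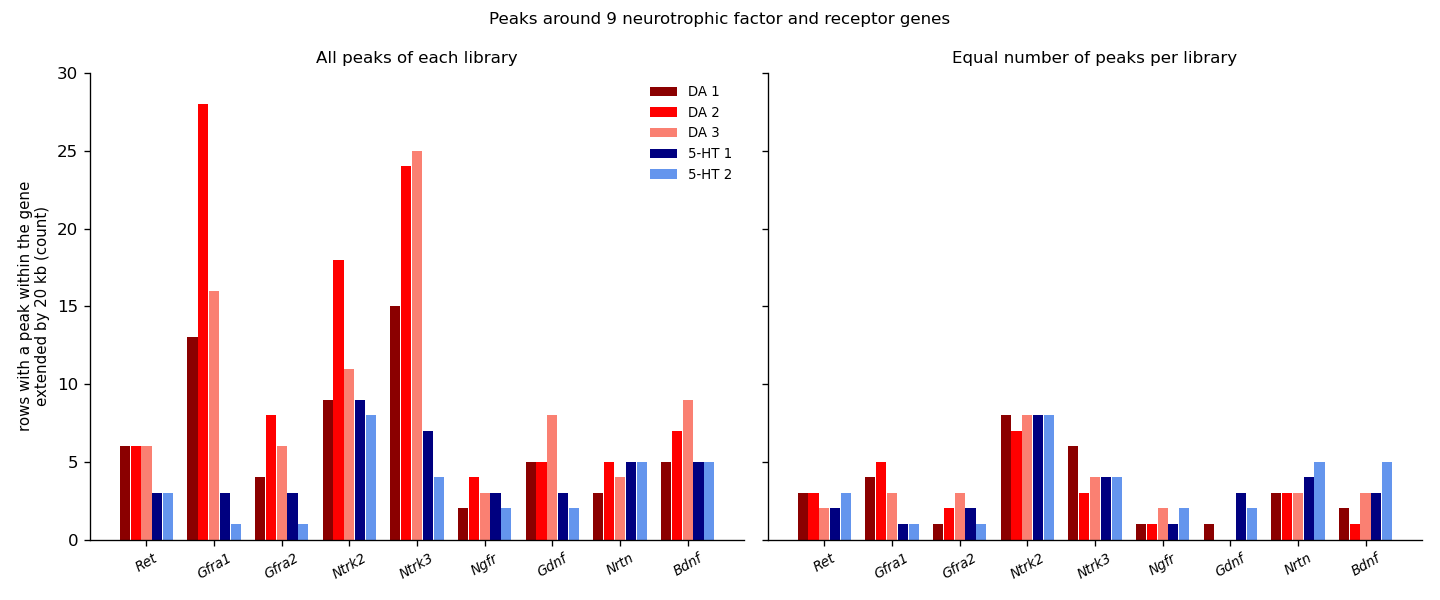
Number of regions with a peak in each of the 5 libraries for each gene extended by 20 kb, with all peaks (left) and with the 22879 highest-scoring peaks of each library (right); each bar is 1 library. With all peaks, Gfra1 had 13, 28 and 16 regions in the DA libraries and 3 and 1 in the 5-HT libraries, and at the matched number it had 4, 5 and 3 against 1 and 1, while Ntrk2 had 7 or 8 in every library.

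Ret, the signalling receptor for the GDNF family, carried 6 regions, and every DA library had a peak in all 6. Both 5-HT libraries had a peak in the same 3 of them: the promoter region, a region around exon 4 and the promoter of the neighbouring gene Csgalnact2. The promoter region at chr6:118146661-118148127 scored 5.16, 5.45 and 4.23 in the DA libraries against 3.96 and 3.24 in the 5-HT ones. It was kept at the matched number in 5-HT replicate 2 alone, the library whose whole list is kept at that number. The second, at chr6:118129737-118130631, contains the 245 bp of exon 4 and has its centre in intron 4. It scored 6.23, 8.96 and 6.72 against 4.91 and 3.93, and was kept in all 5 libraries at the matched number.

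The other 3 regions of Ret were DA-only. The highest-scoring, 176 bp wide at chr6:118145247-118145422, lay in intron 1, with its centre 2.43 kb downstream of the TSS, and scored 7.44, 8.41 and 7.60 in the DA libraries. It scored higher than the Ret promoter in each of the 3 DA libraries, was among the 22879 highest-scoring peaks of each, and had no peak in either 5-HT library. A second region in intron 1, at chr6:118136720-118136977, scored 6.64, 5.72 and 4.19, and at the matched number it was kept in DA replicate 1 alone. The region at chr6:118154808-118155166, 7.05 kb upstream of the gene, scored 4.89, 4.71 and 3.74 and was not kept in any library at the matched number. Of the 6 regions of Ret, 3 thus had a peak in DA libraries alone, and the count stayed at 3 when any one library was left out. Of all protein-coding genes, 6.63% had at least 3 DA-only regions, and 3.96% had at least as many per 100 kb as Ret (3.49). At the matched number Ret had 1, a count that 11.0% of protein-coding genes reached, and 6.39% had at least as many per 100 kb (1.16).

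Gfra1 encodes the co-receptor that binds GDNF, and it had the most DA-only regions of the 9 genes when all 5 libraries were used. Without DA replicate 1, Ntrk3 had 15 and Gfra1 12. Its window held 31 regions, of which 13, 28 and 16 were open in the DA libraries and 3 and 1 in the 5-HT libraries. Of all protein-coding genes, 0.496% had 9 or more DA-only regions, and 4.03% had at least as many per 100 kb as Gfra1 (3.46). Of the 9, 5 lay in intron 5, 2 in intron 9, 1 in intron 4 and 1 upstream of the gene. The strongest, at chr19:58442789-58443388 in intron 5, scored 9.09, 12.7 and 12.4 in DA replicates 1, 2 and 3. A second intron 5 region, at chr19:58451231-58451881, scored 7.46, 7.37 and 7.62. The upstream region at chr19:58543993-58544347, 13.6 kb from the gene, scored 6.10, 7.09 and 10.0. These 3 regions were kept in all 3 DA libraries at the matched number, and neither 5-HT library had a peak in any of them. At the matched number, 0.174% of protein-coding genes had 3 or more DA-only regions, and 6.44% had at least as many per 100 kb as Gfra1 (1.15). The window also held 15 regions with a peak in a single library. Of the 42 such regions of the 9 genes, 25 (59.5%) were in DA replicate 2, against 39.1% over the series, where DA replicate 3 had the largest share (45.7%). Without DA replicate 2 the DA-only count of Gfra1 was still 9.

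The promoter of Gfra1, in contrast, had a peak in every library when all peaks were used. The region at chr19:58527389-58530871 scored 4.19, 4.95 and 4.28 in the DA libraries and 4.02 and 3.80 in the 5-HT libraries. It was kept at the matched number in 5-HT replicate 2 alone, the library whose whole list is kept at that number. A further promoter region at chr19:58531072-58531397 scored 4.21, 6.90 and 5.23 in the DA libraries, 4.29 in 5-HT replicate 1 and 0 in 5-HT replicate 2. In the 5-HT libraries, the single distal peak in the whole window was one of 5-HT replicate 1 at chr19:58373422-58373603, with a score of 3.76.

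**Figure D2:**
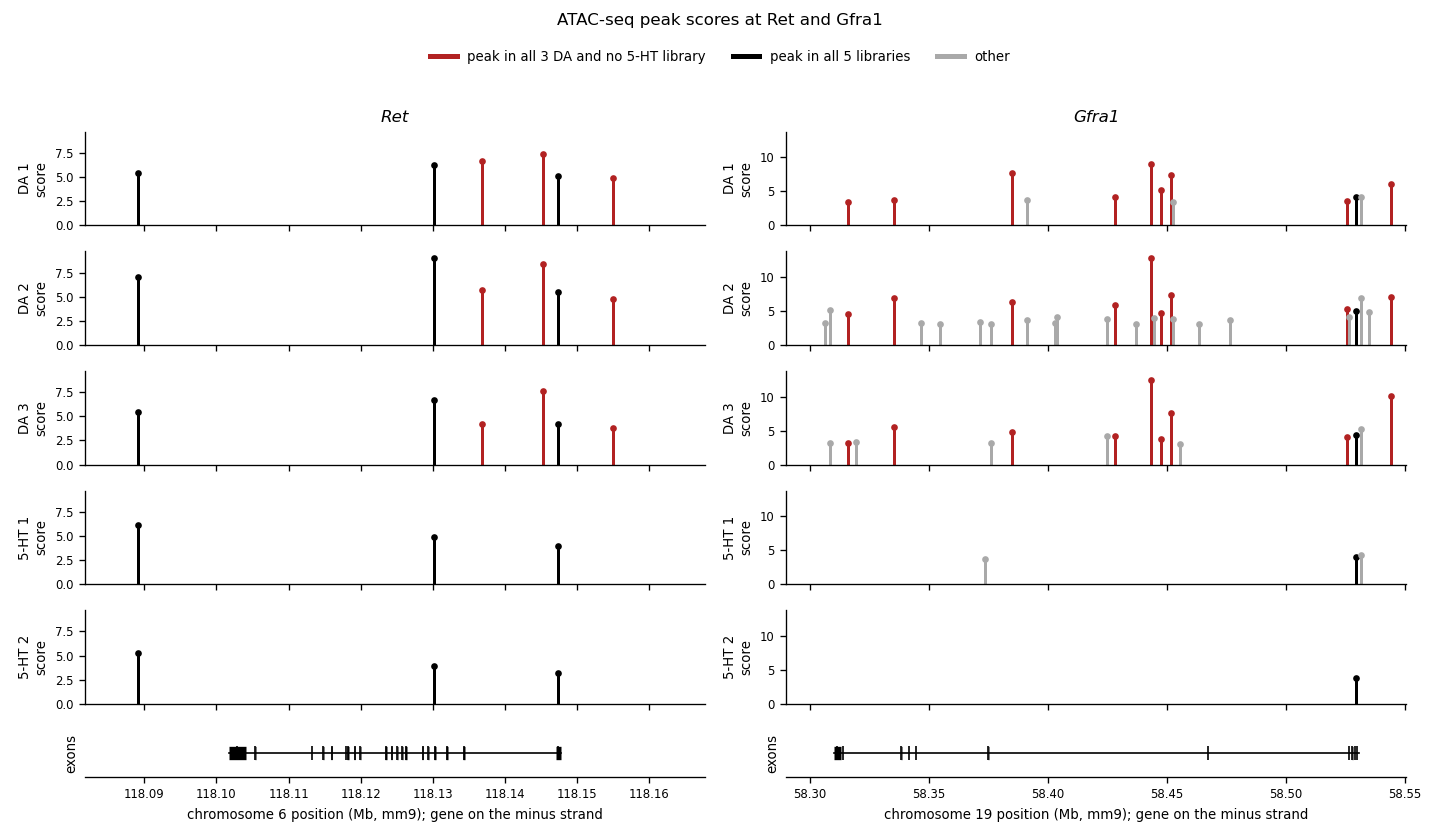
Peak scores (vertical axes, score as deposited, without a unit) along the Ret and Gfra1 genes extended by 20 kb (horizontal axes, mm9 position in Mb), with 1 panel per library and the exons of the longest protein-coding transcript below; each line is 1 region. A promoter region of each gene was present in all 5 libraries, while 3 regions of Ret and 9 of Gfra1 appeared in the 3 DA libraries alone.

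Gfra2, the co-receptor preferred by neurturin, had fewer DA-only regions. Of its 8 regions, 4, 8 and 6 were open in the DA libraries and 3 and 1 in the 5-HT libraries. The promoter region at chr14:71289101-71290541 scored 5.47, 5.47 and 6.61 in the DA libraries and 5.01 and 4.30 in the 5-HT libraries. The highest-scoring distal region, at chr14:71294081-71294499 in intron 1, scored 6.77, 9.52 and 7.55 in the DA libraries, 8.93 in 5-HT replicate 1 and 0 in 5-HT replicate 2. The 2 5-HT libraries thus disagreed at this region. The only DA-only region, at chr14:71362484-71362971 in intron 4, scored 4.71, 6.78 and 6.01, and at the matched number it was kept in DA replicates 2 and 3. The DA-only count of Gfra2 rose to 3 without DA replicate 1 and to 2 without DA replicate 3 or 5-HT replicate 1.

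Ntrk2, in a window of 367 kb, had the largest number of regions in common between the cell types among the neurotrophin receptors, although as a share of its regions Ngfr had more (2 of 4). Of its 21 regions, 9, 18 and 11 were open in the DA libraries and 9 and 8 in the 5-HT libraries, and 7 had a peak in all 5. At the matched number, 8, 7 and 8 regions were kept in the DA libraries and 8 in each 5-HT library. The promoter region at chr13:58907526-58910242 scored 6.81, 10.0 and 6.83 in the DA libraries and 5.93 and 3.92 in the 5-HT libraries. The intron 16 region at chr13:59193619-59194756 scored 10.1, 14.3 and 11.3 against 5.47 and 6.20, and the intron 13 region at chr13:59112243-59113350 scored 12.1, 11.6 and 9.69 against 8.02 and 4.12. Both were kept in all 5 libraries at the matched number, as were 3 more intronic regions.

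Ntrk2 had 2 DA-only regions, a count that 14.3% of protein-coding genes reached, and 35.0% had at least as many per 100 kb (0.544). The stronger lay 11.6 kb downstream of the gene at chr13:59246932-59247827, scored 7.35, 7.83 and 6.51, and was DA-only at the matched number too. Next to it, the region at chr13:59245442-59246117 had a peak in all 5 libraries, with scores of 7.25, 6.42 and 6.97 against 5.89 and 4.21. The other DA-only region, at chr13:59069657-59069969 in intron 12, scored 3.88, 4.39 and 3.27. One intron 16 region leaned the other way: chr13:59192706-59193264 scored 4.58 and 4.30 in the 5-HT libraries, 3.70 in DA replicate 2 and 0 in DA replicates 1 and 3, and was 5-HT-only at the matched number.

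With all peaks, Ntrk3, the TrkC receptor gene, resembled Gfra1 in having a promoter peak in every library and many DA-only regions inside the gene. At the matched number Ntrk3 had 1 DA-only region, a count that 11.0% of protein-coding genes reached, and Gfra1 had 3. Of its 29 regions, 15, 24 and 25 were open in the DA libraries and 7 and 4 in the 5-HT libraries. All 8 DA-only regions were intronic, with 3 in intron 1, 2 in intron 3, 1 in intron 4 and 2 in intron 11. The one that was DA-only at the matched number as well, at chr7:85638125-85639024 in intron 3, scored 6.23, 6.93 and 6.55 in the DA libraries. An intron 1 region at chr7:85684778-85685353 scored 6.64, 7.59 and 5.84 and was kept in DA replicates 1 and 2 at the matched number. Of all protein-coding genes, 0.706% had 8 or more DA-only regions, but 17.3% had at least as many per 100 kb as Ntrk3 (1.88). The count rose to 15 without DA replicate 1.

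The promoter region of Ntrk3 at chr7:85721994-85724223, which it shares with the gene Gm9885, scored 4.42, 4.86 and 4.34 in the DA libraries and 4.35 and 2.83 in the 5-HT libraries. Its strongest region with a peak in all 5 libraries lay 17.4 kb upstream at chr7:85740727-85741362, with scores of 10.8, 10.7 and 8.19 against 7.26 and 3.61. The promoter region and a region 0.742 kb downstream of the gene, at chr7:85335615-85336506, were kept at the matched number in the 5-HT libraries alone, although all 5 libraries had a peak there. The promoter peak of 5-HT replicate 2 ranked 22852 of 22879, near the lowest score of that library, whose whole list is kept at that number.

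**Figure D3:**
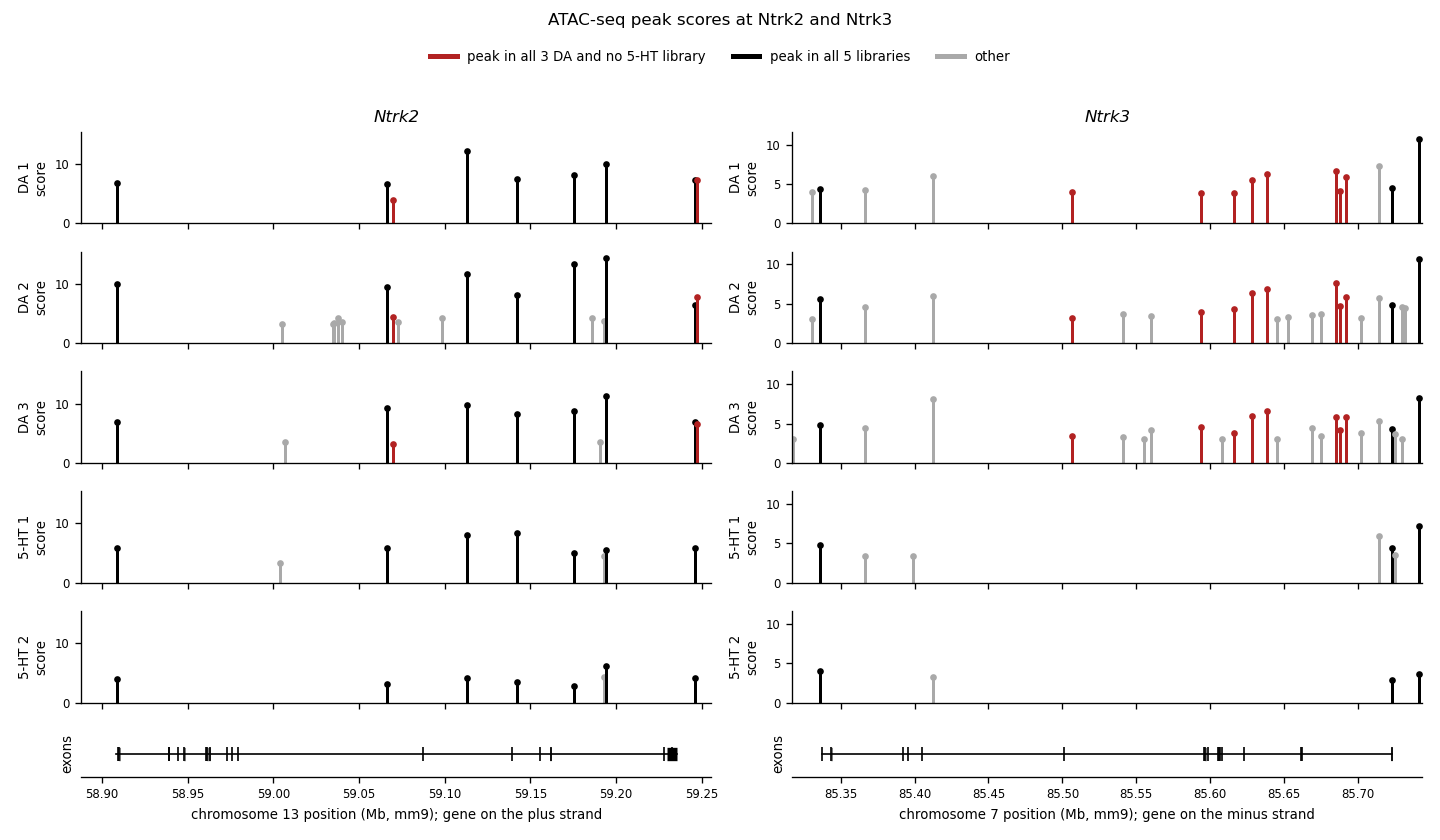
Peak scores (vertical axes, score as deposited, without a unit) along the Ntrk2 and Ntrk3 genes extended by 20 kb (horizontal axes, mm9 position in Mb), with 1 panel per library and the exons of the longest protein-coding transcript below; each line is 1 region. At Ntrk2, 7 regions were present in all 5 libraries and 2 were DA-only, while at Ntrk3 the numbers were 3 and 8.

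Ngfr, encoding the p75 receptor, had 4 regions and none that was DA-only. The promoter region at chr11:95448499-95449246 scored 6.11, 5.46 and 6.01 in the DA libraries and 3.81 and 3.04 in the 5-HT libraries. A region in intron 1 at chr11:95447186-95448137 scored 4.74, 7.31 and 6.40 against 4.57 and 3.25. Both regions had a peak in all 5 libraries, and the other 2 had none in DA replicate 1 or 5-HT replicate 2.

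The ligand genes had at most 1 DA-only region each with all 5 libraries. Without DA replicate 1, Bdnf had 3 and Gdnf 2, and Gdnf also had 2 without 5-HT replicate 1. Gdnf had 9 regions, of which 5, 5 and 8 were open in the DA libraries and 3 and 2 in the 5-HT libraries. Its promoter region at chr15:7759823-7761674 scored 4.48, 4.74 and 5.39 in the DA libraries and 4.26 and 2.87 in the 5-HT libraries. A wide region in intron 1, at chr15:7762488-7764566, scored 5.87, 5.48 and 5.00 against 5.11 and 2.85. The DA-only region at chr15:7783833-7784710, with its centre in intron 2 and 363 of its 878 bp in an exon, scored 4.65, 4.20 and 4.49 and was not kept in any library at the matched number. At that number, 1, 0 and 0 of the 9 regions of Gdnf remained in the DA libraries, against 3 and 2 in the 5-HT libraries. Of all regions, 17.3% were kept in each library. The 2 regions of 5-HT replicate 2, whose whole list is kept, ranked 22310 and 22508 of its 22879 peaks. The counts are therefore not read as a difference between the cell types.

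Nrtn was the one gene of the 9 whose main promoter scored higher in the 5-HT libraries, both in the score and in the percentile described below. Its main promoter region at chr17:56896343-56897118 scored 0, 3.52 and 3.53 in the DA libraries and 4.57 and 3.86 in the 5-HT libraries. The 5-HT scores were both above all 3 DA scores, and at the matched number the region was 5-HT-only. A further promoter region, at chr17:56897521-56897749, had a peak in 5-HT replicate 1 alone (3.65). The region upstream of Nrtn at chr17:56900981-56902144 scored 10.0, 11.8 and 12.4 in the DA libraries and 6.96 and 3.65 in the 5-HT libraries, and lay between Nrtn and the promoter of Dus3l, which was open in all 5 libraries. The bodies of Dus3l, Prr22 and Rfx2 also overlap this window, so its distal regions cannot be assigned to Nrtn by position.

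Bdnf is transcribed from several promoters, and 5 of its 10 regions overlapped one of them. The main promoter region at chr2:109516013-109519387 scored 8.60, 10.8 and 8.76 in the DA libraries and 6.57 and 4.34 in the 5-HT libraries, and was kept in all 5 at the matched number. The most upstream promoter region, at chr2:109513559-109514924, scored 3.72, 5.01 and 4.52 against 4.29 and 2.97. The one at chr2:109533135-109535439 scored 7.19, 6.27 and 6.43 against 5.24 and 4.17. Beside it, chr2:109532425-109532811 scored 6.29 and 7.46 in DA replicates 2 and 3 and had no peak in the other 3 libraries. The fifth promoter region, at chr2:109514998-109515853, had a peak in DA replicate 2 (3.60) and in both 5-HT libraries (3.54 and 3.33). The single DA-only region, at chr2:109562946-109563607, had its centre in intron 1 and 69 of its 662 bp in an exon, and scored 3.49, 4.07 and 5.42.

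Promoter accessibility was compared between the groups on the percentile of the main promoter region among the peaks of its own library, where 100 is the highest-scoring peak and a library without a peak is set to 0. An exact permutation test of 3 against 2 libraries (two-sided) cannot give a p under 0.1; after Benjamini-Hochberg adjustment over the 14559 genes the smallest adjusted p was 0.233. Ngfr had percentiles of 64.4, 64.7 and 76.1 in the DA libraries and 26.9 and 14.6 in the 5-HT libraries, a difference of 47.6 points (exact permutation p = 0.1, adjusted p = 0.233). Ret had 50.7, 64.6 and 54.7 against 33.2 and 28.2, a difference of 26.0 points with the same p values in the exact test. Bdnf had 84.9, 91.9 and 90.3 against 83.5 and 69.2, a difference of 12.7 points, again with the smallest p that the exact test allows. The difference of Bdnf was 19.8 points without 5-HT replicate 1 and 5.59 without 5-HT replicate 2. In these 3 genes every DA library stood above both 5-HT libraries, which held for 53.2% of all genes with a promoter region.

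Nrtn was the only gene of the 9 with every DA percentile below both 5-HT percentiles, at 0, 25.1 and 35.7 against 52.4 and 56.1 (difference -34.0 points, exact permutation p = 0.2). That order was found in 0.549% of all genes. In the other 5 genes the groups overlapped, with percentile differences of 31.2 points for Gdnf, 26.5 for Ntrk3, 13.7 for Ntrk2, 3.12 for Gfra1 and 1.35 for Gfra2. These differences depended on single libraries. Without 5-HT replicate 1 they were 51.8 for Gdnf, 49.7 for Ntrk3 and 23.0 for Ntrk2, and without 5-HT replicate 2 they were 10.7, 3.36 and 4.38. Those of Gfra1 and Gfra2 turned negative without 5-HT replicate 1 (-6.23 and -1.49) and without DA replicate 3 (-0.832 and -5.35), and that of Gfra1 also without DA replicate 2 (-2.19).

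A percentile depends on how many weak peaks a library has. The rank from the highest-scoring peak, a scale chosen after seeing the data, depends on the length of the list as well: a peak of 5-HT replicate 2 cannot rank below 22879, while one of DA replicate 3 can rank down to 94351. Low DA ranks are therefore expected in part from the lists, and the rank is read only against the same count over all genes. The score as deposited gave all 9 promoter differences the direction of the percentile, and the rank turned 8 of them. Scores were higher in the DA libraries over all regions with a peak in all 5 libraries. The direction by score was not counted over all genes. The Ret promoter ranked 26076, 32962 and 42696 in the DA libraries and 25889 and 16440 in the 5-HT libraries. By rank, no gene had every DA library ahead of both 5-HT libraries, against 11.3% of all genes, and 7 of the 9 had every DA library behind both, against 31.1%. Ngfr and Ntrk2 were the other 2. The order for Nrtn was the same on both scales, with ranks of 69681 and 60670 in DA replicates 2 and 3, no peak in DA replicate 1, and ranks of 18458 and 10047 in the 5-HT libraries. At the matched number, 4 of the 15 promoter regions were 5-HT-only (26.7%, against 3.55% of all promoter regions), at Gdnf, Nrtn, Bdnf and Ntrk3. None was DA-only, against 0.934%, and 2 were kept in all 5 libraries (13.3%, against 44.2%), at Bdnf and Ntrk2. Peaks in promoter regions took up 43.4%, 43.5% and 41.9% of the kept peaks of the DA libraries and 47.7% and 48.2% of those of the 5-HT libraries. Among protein-coding genes outside the 9, the promoter percentiles most like those of Ret over the 5 libraries were those of Atxn1 and 5033430I15Rik, which share 1 region (Euclidean distance 5.51 percentile points), and Gkap1 (8.03).

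Of 32 other genes of these pathways, all were found in the annotation, 29 had a promoter region, and in 21 of the 29 (72.4%) the main one had a peak in all 5 libraries, against 74.3% of all genes with a promoter region. At least 1 DA-only region lay within 20 kb of 14 of the 32 (43.8%, against 36.7% of protein-coding genes), and of 4 at the matched number (12.5%, against 11.0%), shares near those of all genes. The main promoter region was kept in all 5 libraries at the matched number in 18 of the 29. Over all promoter regions, main or not, the share was 44.2%. In the GDNF family, Pspn, Gfral and Gdf15 had no promoter peak in any library, and Artn and Gfra3 had one in DA replicate 2 alone. Gfra4, the co-receptor of persephin, scored 6.91, 8.02 and 6.03 in the DA libraries, 4.04 in 5-HT replicate 1 and 0 in 5-HT replicate 2, and its promoter was DA-only at the matched number. The alternative GDNF co-receptors Ncam1 and Sdc3 had a promoter peak in all 5 libraries, at 9.23, 9.04 and 8.89 against 5.45 and 3.76 for Ncam1. Ntf3, the ligand of TrkC, had a promoter peak in DA replicates 2 and 3 (3.48 and 3.58) and in both 5-HT libraries (4.09 and 3.16), and Ntf5 in DA replicate 2 and 5-HT replicate 1. Sort1 had peaks in all 5, as had Manf and Cdnf, which encode trophic factors of another family.

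Downstream of the receptors, 9 of 11 adaptor genes had a promoter peak in all 5 libraries, and the exceptions were Shc3, without a peak in 5-HT replicate 2, and Dok4, with peaks in DA replicates 1 and 2 alone. The 4 feedback inhibitors Spry1, Spry2, Spry4 and Dusp6 had a promoter peak in all 5 libraries. Of the 4 p75 partner genes, Lingo1, Rtn4r and Maged1 had one in all 5, and Sorcs2 lacked one in 5-HT replicate 2. Of the 75 regions around these 4 genes, 13 were DA-only, against 17616 of all 131942 regions. Sorcs2 had 10 of the 13 and 45 of the 75. None of the 13 was DA-only at the matched number, against 12.2% of all DA-only regions.

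The sequences of the 6 distal regions that were DA-only at both numbers of peaks are shown because these regions separate the libraries without resting on the weaker peaks, a choice made after their values were seen. Each is the central 200 bases of a region on the plus strand of mm9, and capitals mark matches to 5 motifs searched on both strands: the NBRE motif AAAGGTCA, bound by NR4A receptors such as NURR1, the forkhead motif TGTTTAC, the homeodomain motif TAATTA, the GATA motif AGATAA and the cyclic AMP response element (CRE) motif TGACGTCA. The windows are chr6:118145235-118145434 in intron 1 of Ret, which reaches past both ends of a 176 bp region, chr19:58442989-58443188 and chr19:58451457-58451656 in intron 5 of Gfra1, chr19:58544071-58544270 upstream of Gfra1, chr13:59247280-59247479 downstream of Ntrk2 and chr7:85638475-85638674 in intron 3 of Ntrk3.
Ret intron 1: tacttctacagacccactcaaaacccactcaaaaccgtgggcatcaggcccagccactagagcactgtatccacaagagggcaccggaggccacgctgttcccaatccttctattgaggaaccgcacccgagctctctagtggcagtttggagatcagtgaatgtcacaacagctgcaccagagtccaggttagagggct
Gfra1 intron 5, first window: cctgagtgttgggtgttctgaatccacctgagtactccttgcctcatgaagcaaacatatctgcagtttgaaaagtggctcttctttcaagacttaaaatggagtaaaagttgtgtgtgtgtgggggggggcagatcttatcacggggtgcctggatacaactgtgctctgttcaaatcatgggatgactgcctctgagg
Gfra1 intron 5, second window: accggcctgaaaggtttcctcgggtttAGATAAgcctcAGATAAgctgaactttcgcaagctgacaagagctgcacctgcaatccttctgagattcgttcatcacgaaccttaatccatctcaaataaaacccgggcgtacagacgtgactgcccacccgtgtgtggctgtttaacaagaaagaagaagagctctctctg
Gfra1 upstream: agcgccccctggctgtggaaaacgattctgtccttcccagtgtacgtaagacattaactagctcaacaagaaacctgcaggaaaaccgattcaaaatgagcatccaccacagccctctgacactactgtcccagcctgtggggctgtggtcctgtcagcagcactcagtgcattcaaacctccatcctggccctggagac
Ntrk2 downstream: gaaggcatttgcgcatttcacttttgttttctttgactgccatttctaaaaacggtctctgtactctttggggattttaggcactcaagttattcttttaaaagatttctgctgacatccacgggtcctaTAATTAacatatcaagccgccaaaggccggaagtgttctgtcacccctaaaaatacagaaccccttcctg
Ntrk3 intron 3: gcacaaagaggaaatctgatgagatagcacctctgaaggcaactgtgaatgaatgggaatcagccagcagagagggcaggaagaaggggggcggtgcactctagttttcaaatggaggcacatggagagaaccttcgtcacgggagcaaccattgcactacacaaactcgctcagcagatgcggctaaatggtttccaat
The second Gfra1 window holds the GATA letters 2 times and the Ntrk2 window holds the homeodomain letters once, while the other 4 windows hold none of the 5 motifs. Their GC content was 54.5% for Ret, 47.5%, 48.5% and 53.5% for the Gfra1 windows in the order shown, 41.5% for Ntrk2 and 50.5% for Ntrk3. A match describes the letters of the window and does not show that a factor binds there.

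Over the central 200 bases of all 25 DA-only regions of the 9 genes, the homeodomain letters were found in 3, the GATA letters in 2, the NBRE in 1, the forkhead letters in 1 and the CRE in none. The same windows held these motifs in 8.80%, 10.5%, 3.55%, 5.43% and 0.210% of all 17616 DA-only regions and in 6.37%, 9.21%, 1.88%, 3.82% and 0.354% of all 131942 regions. The NBRE match lay in the weak DA-only region of Gfra1 at chr19:58315744-58316312 in intron 9, and the forkhead match in that of Ntrk3 at chr7:85687333-85687860. Among the 25 regions with a peak in all 5 libraries, 2 held the GATA letters, 1 the homeodomain letters and none the other 3 motifs. Of all 16856 such regions, 4.14% held the GATA letters, 2.57% the homeodomain letters, 0.481% the NBRE, 1.78% the forkhead letters and 1.16% the CRE. Median GC content was 49.0% in the DA-only regions of the 9 genes and 62.5% in those with a peak in all 5 libraries, against 48.0% and 60.5% over the whole list of regions of each kind.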

How the data were processed

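ATAC-seq peaks of 3 DA and 2 5-HT libraries were analysed. The authors processed each library separately: Trimmomatic and FastQC for read quality, Bowtie2 for alignment to mm9, Picard for duplicates, MACS2 for peaks, BEDOPS to join neighbours closer than 100 bp, and HOMER for annotation. The versions and the peak threshold are not given in the sources used here. The deposited score of each of 131942 regions has no named scale, and 0 means no peak. Scores were used to describe and rank peaks within a library. As deposited, they were also summed over genes and libraries and compared between the groups. Such comparisons take the scale to be the same in every library, which was not tested. Median scores were higher in the DA libraries over all regions with a peak in all 5 libraries, as given above. The chromosome was respelled in 1 line, as Y.

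Genes and promoters came from the GENCODE annotation of the same build, and no region ran past a chromosome end. A region was counted with an overlap of at least 1 bp. The main promoter region of a gene was the one with most libraries, then the highest mean percentile. Named regions were the promoter regions, the DA-only region with the highest score in its lowest DA library, 5-HT-only regions and the distal region with the highest mean percentile of each gene, and neighbour genes with a promoter in a window. For Ret, the 3 genes with the nearest promoter percentiles were added. Other regions and the examples among the pathway genes were picked after their values were seen. The 9 genes and the lists were chosen with earlier results of these data known, and some genes of the lists are not reported here. Each exact p is the share of the 10 arrangements of the libraries that give a difference of means at least as large. The unit is a separate sort, and the groups also differ in genotype, brain region and sorting strategy. Alternatives covered the number of peaks, windows, promoters, merging, scale and each library left out. The tools were pysam 0.24.0, matplotlib 3.10.9 and SciPy 1.17.1 under Python 3.11.15 with NumPy 2.4.6, and the steps were tested on simulated data. RNA-seq was not analysed here.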

Additional observations from a re-analysis of the deposited data

How the results depend on the processing

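The total counts of regions over the 9 genes moved by more than 1.5 times with some choices. These were the number of peaks used and the removal of DA replicate 1 or 2, and the other choices moved the totals less. Counts of single genes moved with other removals too. The DA-only counts of Gfra2 and Gdnf rose from 1 to 2 without 5-HT replicate 1, and that of Gfra2 also without DA replicate 3. With the matched number, the 10000 highest-scoring peaks and the peaks at or above the median score of each library, DA-only regions numbered 6, 2 and 14 (25 with all peaks), regions with a peak in all 5 libraries 12, 2 and 11 (25), and 5-HT-only regions 6, 2 and 2 (0). With 1 library left out at a time, these counts ranged from 25 to 40, from 25 to 30 and from 0 to 2. The 40 came without DA replicate 1 and the 2 without DA replicate 2. Gene bodies alone, 50 kb of flank, region centres and merged regions stayed within that limit. Genes with a promoter peak in all 5 libraries fell from 8 to 2 at the matched number. The difference in the share of regions with a peak, -1.73 percentage points at the matched number, was 39.2 with all peaks, -1.06 with gene bodies alone and -0.329 with 50 kb of flank. Leaving out DA replicate 2 gave -0.800, and leaving out 5-HT replicate 1 or 2 gave -2.93 or -0.533. For distal regions alone, every DA library was above both 5-HT libraries at both numbers. The same order held over all distal regions of the series, so it is not particular to the 9 genes. A stricter limit keeps fewer peaks by construction, and no other cause was tested.

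By rank, chosen after seeing the data, the promoter differences turned to -12747 places for Ret, -21475 for Gfra1, -14079 for Gfra2, -12160 for Gdnf, -1479 for Bdnf, -4493 for Ntrk2, -16429 for Ntrk3 and -810 for Ngfr, where a negative value means that DA ranked lower. Longer lists of peaks allow lower ranks, so the sign of these values is not read as a difference between the cell types. With the score as deposited, all 9 differences kept the direction of the percentile. Scores were higher in the DA libraries over all regions with a peak in all 5 libraries, so this is not read as further support. With 1 library left out, the percentile difference of Gfra1 ranged from -6.23 to 12.5 points and that of Gfra2 from -5.35 to 7.01, and the other 7 genes kept their direction in those settings. The size changed by more than 1.5 times for Gdnf (10.7 to 51.8), Bdnf (5.59 to 19.8), Ntrk2 (4.38 to 23.0) and Ntrk3 (3.36 to 49.7), with the lowest values without 5-HT replicate 2 and the highest without 5-HT replicate 1.

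With the replicate block, which pairs numbers 1 and 2 and leaves out DA replicate 3, the share difference was -2 percentage points, and the promoter difference was -0.832 for Gfra1 and -5.35 for Gfra2, with no change of direction in the other genes. The labels give no shared source to equal numbers, and deviations from the group means correlated at -0.0554 and -0.0371 for numbers 1 and 2 over 16856 regions with a peak in all 5 libraries. Read depth is unknown, so a missing peak in a 5-HT library does not show closed chromatin.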
